A study of Chlamydomonas reinhardtii with 21 samples.

Results

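HDA8 (Cre11.g467706), HDA9 (Cre11.g467751), HDA10 (Cre11.g467785) and HDA11 (Cre11.g469600) are histone deacetylase genes that lie on chromosome 11 of the unicellular green alga Chlamydomonas reinhardtii. They were chosen by name and position from the study's inventory of histone deacetylase genes, and are 4 of the 17741 gene models measured. Their transcript levels were not used for this choice, though earlier results of these data were known. The inventory has 17 genes, 14 of the RPD3/HDA1 type and 3 of the Sir2 type, and HDA12 (Cre11.g477800), which lies further along chromosome 11, was kept for comparison. All 4 genes passed the filter on low values, as did the other 13.

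Histone deacetylases remove acetyl groups from lysines in histone tails, and deacetylated chromatin is generally less accessible to transcription. Enzymes of the RPD3/HDA1 type use a zinc ion for this reaction. Sir2-type enzymes, or sirtuins, consume NAD instead, and SRTA (Cre10.g462200), the gene mutated in the strains studied here, encodes one of these. In the study's inventory the closest Arabidopsis thaliana relative of HDA8, HDA10 and HDA11 is HDA5, and that of HDA9 is HDA19. The inventory also gives HDA19 as the closest relative of HDA4 and HDA7, both with a higher similarity than HDA9. HDA19 of Arabidopsis is a widely studied deacetylase of the RPD3 type that acts with transcriptional repressors, and HDA5 of Arabidopsis belongs to the HDA1-like branch.

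Transcripts were measured by RNAseq in 21 separate cultures, grown without any treatment to mid-log phase in liquid TAP, an acetate medium, with continuous light. Batch 2 consisted of 3 cultures of each of UVM11-C9, UVM11-C1 and UVM11, while batch 1 had 4 of each of UVM4, UVM11 and Elow47. UVM4 carries the srta-2 allele and UVM11 the srta-1 allele. Both are clones obtained by UV mutagenesis of Elow47, which has wild-type SRTA, so that they may carry further mutations. UVM11-C1 and UVM11-C9 are single transformants of UVM11 with an added wild-type SRTA copy, which runs from its own promoter with a FLAG tag and came with a hygromycin resistance gene. All strains descend from the cell wall-deficient, arginine-requiring strain used to make Elow47, and all carry the CRY1-1 and ARG7 marker genes that Elow47 received. Differences are therefore between single strains, and an effect of SRTA cannot be told apart from other differences between the clones. Each value comes from a whole culture, so that fewer expressing cells and less RNA per cell cannot be told apart.

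Levels are given as FPKM, the fragments of a gene per kilobase of its length and relative to the mapped library, and the values are those the authors deposited. The number of reads behind them is unknown. The relative depth of the libraries, estimated from the single-fragment steps of low values, ranged from 0.822 to 1.25, and the ranges of all 6 groups overlapped. The correlation between replicate cultures was at least 0.992. Differences were tested with limma on log2(FPKM + 0.1) over 15425 genes, and a gene was called where its Benjamini-Hochberg adjusted p-value was below 0.05. The mutations of SRTA are point mutations, so that its transcript level does not check the labels of UVM4 and UVM11. SRTA averaged 3.48 ± 0.171 FPKM in UVM11-C9 and 5.19 ± 0.403 FPKM in UVM11-C1, against 2.80 ± 0.137 FPKM in UVM11 of the same batch (SD, n = 3 each).

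In version 5.5 of the annotation HDA8 spans positions 1274576 to 1282091 of chromosome 11, and HDA9 spans 1526651 to 1536986. HDA10 spans 1723312 to 1729420, and HDA11 spans 2157203 to 2165526. The 4 genes thus lie within 891 kb but are not adjacent. Between HDA8 and HDA9 lie 43 other genes over 245 kb, between HDA9 and HDA10 33 genes over 186 kb, and between HDA10 and HDA11 70 genes over 428 kb. HDA12 follows 704 kb after HDA11. Each of the 4 sits close to its neighbours. HDA10 starts 6 bases after Cre11.g467784 and ends 67 bases before Cre11.g467786, and HDA11 ends 10 bases before Cre11.g469650. The gene models do not overlap, but reads that run past a transcript's end would fall on the neighbour, and their part in the levels was not tested.

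The 4 genes differed widely in level. Over all 21 cultures HDA9 averaged 15.04 FPKM, HDA11 7.02 FPKM, HDA10 3.92 FPKM and HDA8 2.58 FPKM, all per length. The median of the genes tested was 5.61 FPKM, so that HDA9 and HDA11 lay above it and HDA10 and HDA8 below it. Among the 17 deacetylase genes, HDA9 ranked second after HDA7, HDA11 seventh, HDA10 eleventh and HDA8 fourteenth. The order HDA9, HDA11, HDA10, HDA8 held in 20 of 21 cultures. The exception was replicate 3 of UVM4, in which HDA8 had 3.14 FPKM and HDA10 had 3.07 FPKM.

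**Figure D1:**
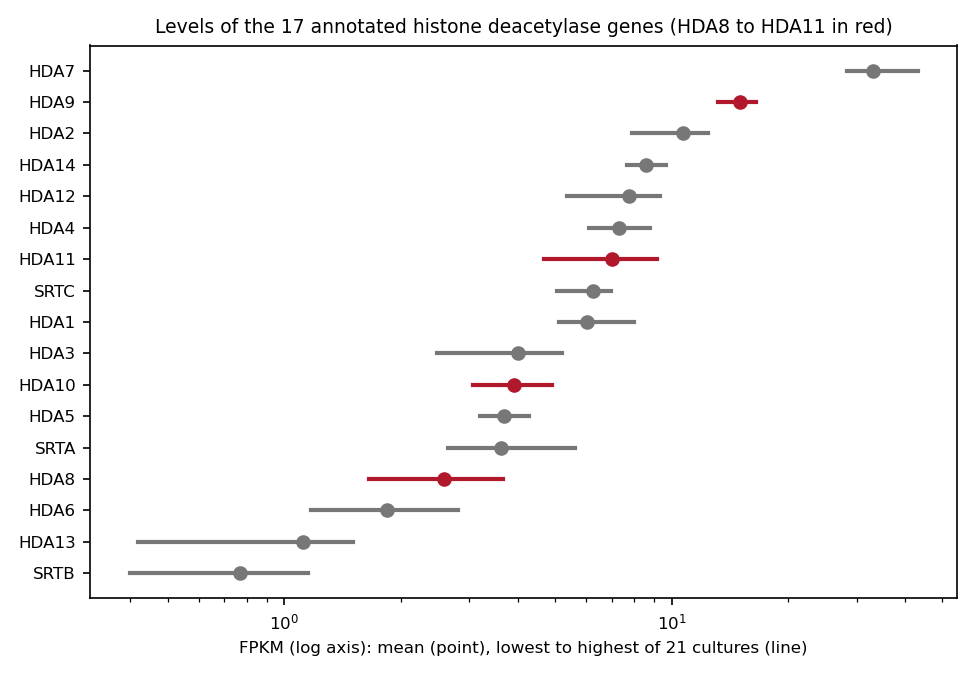
Mean level of each of the 17 histone deacetylase genes over 21 cultures (points) with the lowest and highest culture (lines), in FPKM on a log axis, with HDA8 to HDA11 in red. HDA9 lies second with a mean of 15.04 FPKM, and HDA8 lies fourteenth with 2.58 FPKM.

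Together the 4 genes held 23.2% of the summed FPKM of the 17 genes, with a range over cultures from 19.4% to 25.6%. The share was 19.8% ± 0.391 in UVM11-C9, 22.9% ± 0.965 in UVM11-C1 and 23.0% ± 0.879 in UVM11 of batch 2 (SD, n = 3 each). It was 23.9% ± 0.417 in UVM4, 25.2% ± 0.314 in UVM11 and 23.2% ± 0.367 in Elow47 of batch 1 (SD, n = 4 each). The 3 lowest shares thus belonged to UVM11-C9 and the 4 highest to UVM11 of batch 1. In UVM11-C9 the sum of the 4 genes was 26.2 FPKM, and it was also 26.2 FPKM in UVM11 of the same batch, while the sum of all 17 was 132 FPKM in UVM11-C9 and 114 FPKM in UVM11.

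The genes also differed in how steady they were. Of the 4, HDA9 varied least, with a highest value 1.25 times its lowest over all cultures. It was followed by 1.60 times for HDA10, 1.96 times for HDA11 and 2.22 times for HDA8. Of the other deacetylase genes, HDA14 came close to HDA9, at 1.26 times. Within groups the residual SD on the log2 scale was 0.06 for HDA9, 0.10 for HDA11, 0.11 for HDA10 and 0.15 for HDA8, against a median of 0.12 over all genes tested. HDA9 lay at percentile 3.81 of the genes tested and HDA8 at percentile 69.2. Accordingly the intervals of the differences given for HDA8 were the widest of the 4. The percentiles are taken over genes of all levels, and among the deacetylase genes the residual SD was mostly larger at lower levels. HDA7, with 33.1 FPKM, lay at percentile 2.31, and SRTB, with 0.769 FPKM, at percentile 92.7. The 4 genes had the same order in level, so that steadiness and level were not told apart here.

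HDA9 had 15.3, 15.5 and 15.7 FPKM in UVM11-C9, 13.1, 13.2 and 13.997 FPKM in UVM11-C1, and 13.4, 13.5 and 14.4 FPKM in the batch 2 cultures of UVM11. All UVM11-C9 cultures were thus above all other cultures of their batch. In batch 1 it had 16.0, 15.8, 15.7 and 15.7 FPKM in UVM4, 16.4, 14.7, 16.0 and 16.1 FPKM in UVM11, and 14.96, 15.5, 14.5 and 16.5 FPKM in Elow47. These 3 strains overlapped.

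HDA11 had 4.74, 4.83 and 4.77 FPKM in UVM11-C9, 6.04, 6.36 and 7.19 FPKM in UVM11-C1, and 5.76, 4.67 and 6.03 FPKM in the batch 2 cultures of UVM11. UVM11-C1 was above both other strains in every culture, and UVM11-C9 overlapped with UVM11 only through replicate 6 of UVM11. In batch 1 it had 7.91, 7.82, 7.20 and 7.78 FPKM in UVM4, 8.75, 9.18, 8.75 and 8.86 FPKM in UVM11, and 7.31, 7.48, 8.29 and 7.75 FPKM in Elow47. All UVM11 cultures lay above all UVM4 and Elow47 cultures, and every culture of batch 1 lay above every culture of batch 2.

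HDA10 had 4.04, 4.49 and 4.10 FPKM in UVM11-C9, 4.91, 4.36 and 4.11 FPKM in UVM11-C1, and 4.02, 4.47 and 4.71 FPKM in the batch 2 cultures of UVM11. In batch 1 it had 3.28, 3.68, 3.07 and 3.53 FPKM in UVM4, 4.36, 3.85, 3.52 and 3.77 FPKM in UVM11, and 3.50, 3.23, 3.79 and 3.45 FPKM in Elow47. The strains overlapped within each batch.

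HDA8, which had the lowest level of the 4, had 1.77, 1.85 and 1.65 FPKM in UVM11-C9, 1.89, 2.19 and 2.58 FPKM in UVM11-C1, and 2.86, 2.53 and 2.34 FPKM in the batch 2 cultures of UVM11. The UVM11-C9 cultures were the 3 lowest of all 21. In batch 1 it had 2.81, 2.55, 3.14 and 2.91 FPKM in UVM4, 3.31, 3.67, 3.23 and 2.87 FPKM in UVM11, and 2.38, 2.89, 2.14 and 2.66 FPKM in Elow47. UVM11 overlapped with Elow47 through a single pair of cultures, replicate 4 of UVM11 and replicate 2 of Elow47.

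**Figure D2:**
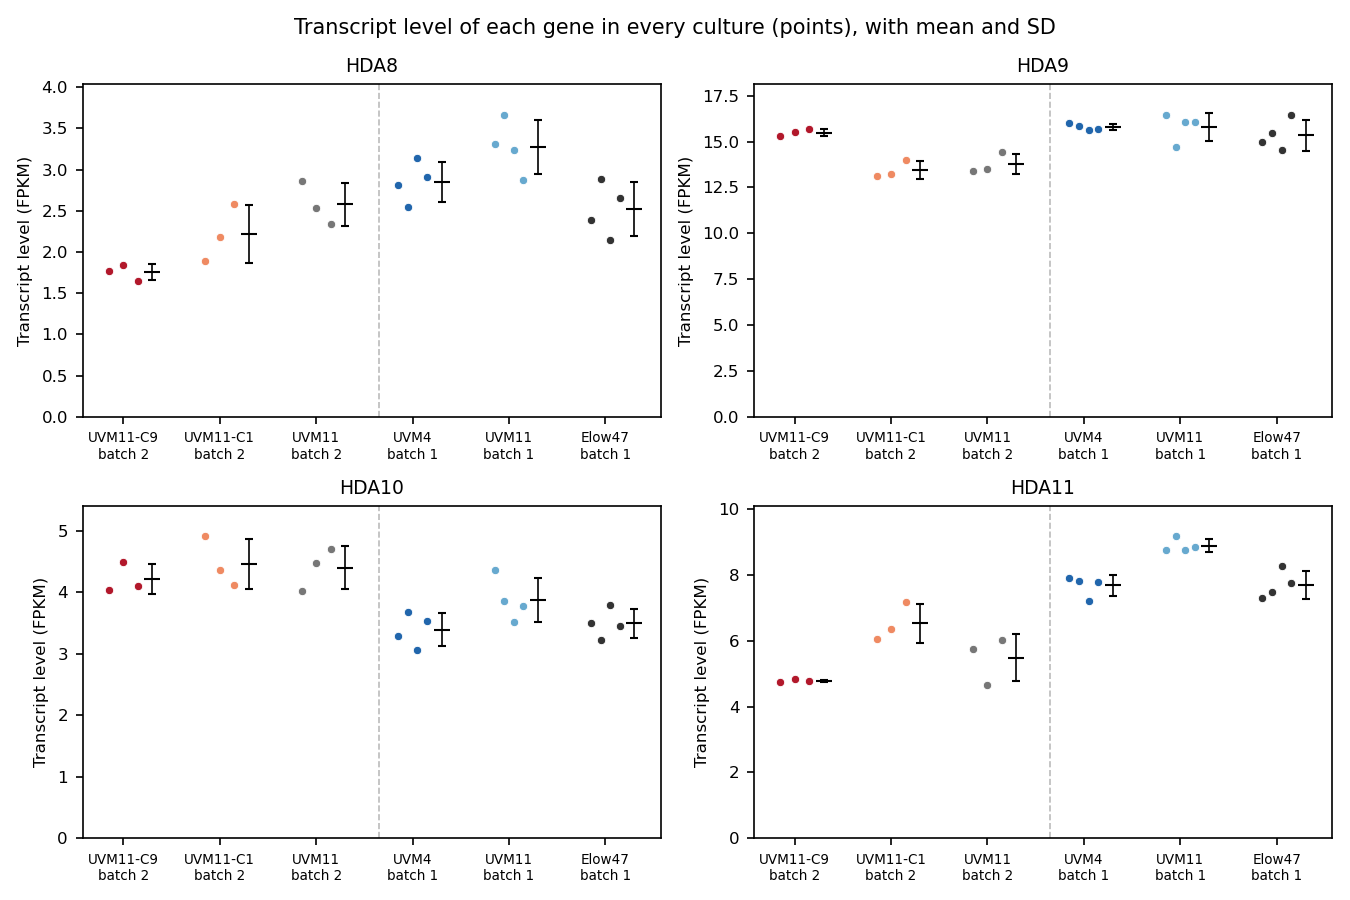
FPKM of HDA8, HDA9, HDA10 and HDA11 in each culture (points) by strain and batch, with the group mean and SD beside the points (n = 3 per group in batch 2, n = 4 in batch 1). In the panel of HDA11 all cultures of batch 1 lie above all cultures of batch 2, and in that of HDA8 the UVM11-C9 cultures are the lowest, from 1.65 to 1.85 FPKM.

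The first comparisons asked whether the srta mutants differed from their parent. In UVM11 against Elow47, 1 of the 4 genes was called, beside 7.86% of all genes tested. HDA8 rose by 0.37 on the log2 scale (SE 0.10), or 29.0%, with an adjusted p-value of 0.0319 (limma), to a mean of 3.27 ± 0.326 FPKM in UVM11 against 2.52 ± 0.326 FPKM in Elow47 (SD, n = 4 each). Its exact two-sided permutation p-value was 0.0571, and the smallest that 4 against 4 cultures allow is 0.0286. The call was lost without replicate 1 or 3 of Elow47 or without replicate 1, 2 or 3 of UVM11, with adjusted p-values from 0.0689 to 0.116, and in a fit of these 2 groups alone, with 0.0685.

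HDA11 differed from Elow47 by 0.20 in UVM11 (SE 0.07), with means of 8.89 ± 0.201 FPKM in UVM11 and 7.71 ± 0.425 FPKM in Elow47 (SD, n = 4 each). The groups did not overlap and the exact permutation p-value was the smallest possible, 0.0286, but the adjusted p-value of limma was 0.0759. It came to 0.0464 without replicate 3 of Elow47, the highest culture of that strain. The share of all genes without overlap was not computed, and 21.7% of all genes had an unadjusted limma p-value below 0.05. HDA10 differed by 0.14 (95% interval -0.02 to 0.31) and HDA9 by 0.04 (-0.05 to 0.14), and neither was called.

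In UVM4 against Elow47, none of the 4 genes was called, beside 8.39% of all genes, and their unadjusted p-values in limma were all above 0.1. The difference of HDA8 was 0.18 (95% interval -0.04 to 0.39) and that of HDA9 0.04 (-0.05 to 0.14). HDA10 differed by -0.04 (-0.21 to 0.12) and HDA11 by -0.0043 (-0.15 to 0.14). The comparisons of UVM4 and UVM11 share the Elow47 cultures.

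The alleles were compared directly as UVM4 against UVM11 of batch 1, where none of the 4 genes was called, beside 9.55% of all genes. HDA10 and HDA11 had unadjusted p-values below 0.05 in limma, beside 23.2% of all genes at that cutoff. HDA11 differed by -0.21 (SE 0.07), with means of 7.68 ± 0.322 FPKM in UVM4 and 8.89 ± 0.201 FPKM in UVM11 (SD, n = 4 each). The groups did not overlap, and the exact permutation p-value was 0.0286, while the adjusted p-value of limma was 0.0622. How many of all genes were without overlap was not computed. HDA10 differed by -0.19 (adjusted p = 0.154) and HDA8 by -0.19 (adjusted p = 0.287). The difference of HDA9 had a 95% interval of -0.10 to 0.10.

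The complemented strains were compared with UVM11 of the same batch, and both comparisons share these UVM11 cultures. In UVM11-C1, 1 of the 4 genes was called, beside 18.4% of all genes. HDA11 rose by 0.25 (SE 0.08; limma, adjusted p = 0.0318), with 6.53 ± 0.595 FPKM in UVM11-C1, against 5.48 ± 0.717 FPKM in UVM11 (SD, n = 3 each). This rested on single cultures. Without replicate 6 of UVM11, the lowest of that group, the difference was 0.14 (adjusted p = 0.207), and the call was also lost without culture b (0.0646) or c (0.136) of UVM11-C1 and in a fit of these 2 groups alone (0.221). HDA8 differed by -0.21 (95% interval -0.46 to 0.04), HDA9 by -0.03 (-0.14 to 0.08) and HDA10 by 0.02 (-0.17 to 0.21).

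In UVM11-C9, 2 of the 4 genes were called, beside 47.5% of all genes. HDA8 fell by 30.5%, a log2 difference of -0.52 (SE 0.12; limma, adjusted p = 0.00128), with 1.76 ± 0.0992 FPKM in UVM11-C9 and 2.58 ± 0.264 FPKM in UVM11 (SD, n = 3 each). It kept this call under all alternatives run, with adjusted p-values up to 0.0103. HDA9 rose by 0.17 (SE 0.05; adjusted p = 0.0133), with 15.5 ± 0.196 FPKM in UVM11-C9 and 13.8 ± 0.558 FPKM in UVM11 (SD, n = 3 each). Without replicate 5 of UVM11 its adjusted p-value was 0.0523.

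HDA11 differed by -0.19 in UVM11-C9 (adjusted p = 0.0602), and by -0.30 without replicate 6 of UVM11 (adjusted p = 0.00285). HDA10 differed by -0.06 (95% interval -0.25 to 0.13). For 3 against 3 cultures the smallest exact permutation p-value is 0.1, which HDA8 and HDA9 reached in UVM11-C9 and HDA11 in UVM11-C1. It means only that the groups did not overlap, and the share of all genes without overlap was not computed. Unadjusted limma p-values were below 0.05 for 53.9% of all genes in UVM11-C9 and for 32.5% in UVM11-C1.

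The 2 complemented strains were also set against each other. In UVM11-C9 against UVM11-C1, 3 of the 4 genes were called, beside 48.2% of all genes. HDA11 fell by 26.2%, a log2 difference of -0.44 (SE 0.08; limma, adjusted p = 0.000150), with 4.78 ± 0.0416 FPKM in UVM11-C9 and 6.53 ± 0.595 FPKM in UVM11-C1 (SD, n = 3 each). HDA9 rose by 0.20 (SE 0.05; adjusted p = 0.00391), with 15.5 ± 0.196 FPKM in UVM11-C9 and 13.5 ± 0.475 FPKM in UVM11-C1. Both kept their calls under all alternatives run.

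HDA8 fell by 0.31 on the log2 scale in UVM11-C9 against UVM11-C1 (SE 0.12; limma, adjusted p = 0.0370). This call was lost without culture b of UVM11-C1 (0.0716), without culture c, where the difference was -0.20 (0.193), and without replicate 1 (0.0687) or 3 (0.117) of UVM11-C9. It was also lost in a fit of these 2 groups alone (0.0803) and after quantile normalization (0.0820). HDA10 differed by -0.08 (95% interval -0.27 to 0.11).

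**Figure D3:**
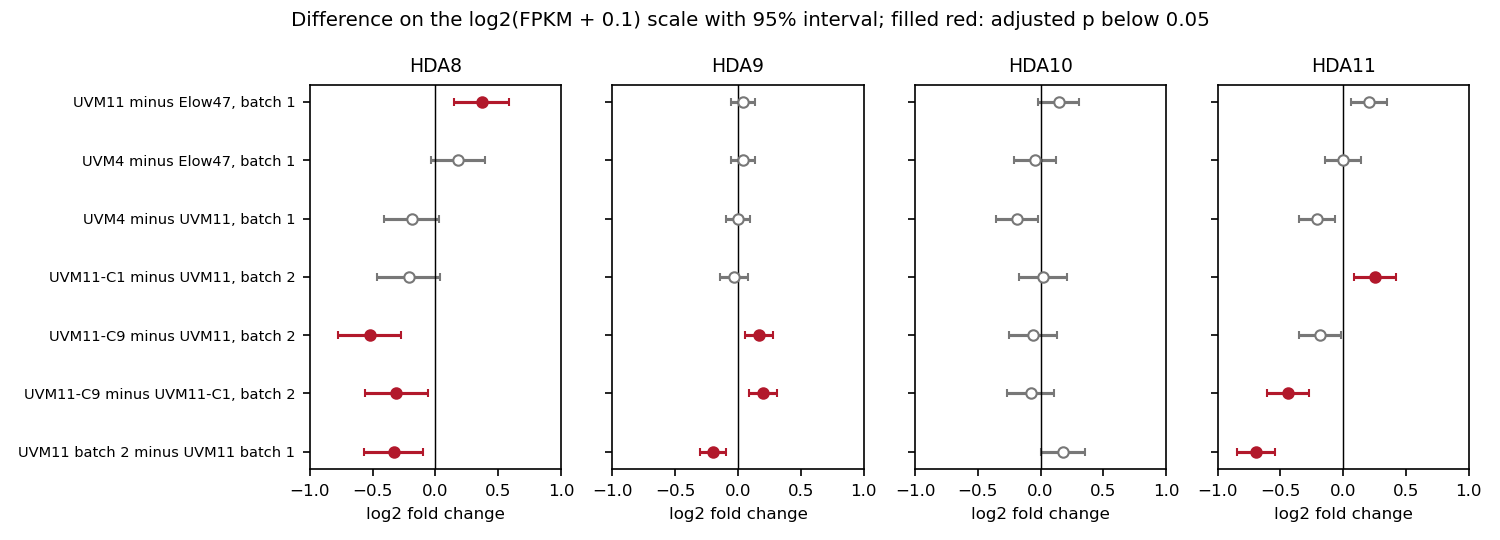
Log2 fold change of each gene in the 7 comparisons with its 95% interval on the log2(FPKM + 0.1) scale, where filled red points mark an adjusted p-value below 0.05. The lowest point is HDA11 between the batches of UVM11, at -0.69, and no point of HDA10 is filled.

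UVM11 was grown in both batches, which allowed the batch difference to be measured in 1 strain. Between batch 2 and batch 1 of UVM11, 3 of the 4 genes were called, all of them lower in batch 2, beside 28.5% of all genes called lower and 56.0% called in either direction. HDA11 fell by 38.2%, a log2 difference of -0.69 (SE 0.07; limma, adjusted p = 1.87e-07), with 5.48 ± 0.717 FPKM in batch 2 (n = 3) and 8.89 ± 0.201 FPKM in batch 1 (n = 4). HDA9 fell by 0.20 (SE 0.05; adjusted p = 0.00218) and HDA8 by 0.33 (SE 0.11; adjusted p = 0.0162). The call of HDA8 was lost without replicate 2 of batch 1 (0.0554) or replicate 7 of batch 2 (0.0856).

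HDA10 went the other way, with 4.40 ± 0.350 FPKM in batch 2 (n = 3) and 3.88 ± 0.353 FPKM in batch 1 (n = 4), a log2 difference of 0.18 (limma, adjusted p = 0.0800). It came below the threshold without replicate 1 of batch 1 (0.0278), without replicate 5 of batch 2 (0.0397) and after quantile normalization (0.0481). The batch difference of HDA11 was larger in size than each of its strain differences within a batch, the largest of which was -0.44. Different strains were compared within a batch only, as in the study's methods. None of the 4 genes reached an absolute log2 fold change above 1 in any of the 7 comparisons.

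Ratios of 2 genes within a culture do not depend on the scaling of the library. HDA11 over HDA10 averaged 1.14 in UVM11-C9, 1.48 in UVM11-C1 and 1.25 in UVM11 of batch 2, where it ranged from 1.04 to 1.75. It averaged 2.27 in UVM4, 2.31 in UVM11 and 2.21 in Elow47 of batch 1, where it ranged from 2.01 to 2.48. The batches thus did not overlap, while the 3 strains of batch 1 overlapped with one another. For HDA8 over HDA10 the batches overlapped, with ranges from 0.384 to 0.711 in batch 2 and from 0.564 to 1.02 in batch 1. HDA9 over HDA8 averaged 8.84 in UVM11-C9, with a range from 8.39 to 9.49, and the other 18 cultures ranged from 4.01 to 6.96. HDA9 accounted for 59.0% of the summed FPKM of the 4 genes in UVM11-C9 and for 49.6% to 53.2% on average in the other groups.

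**Figure D4:**
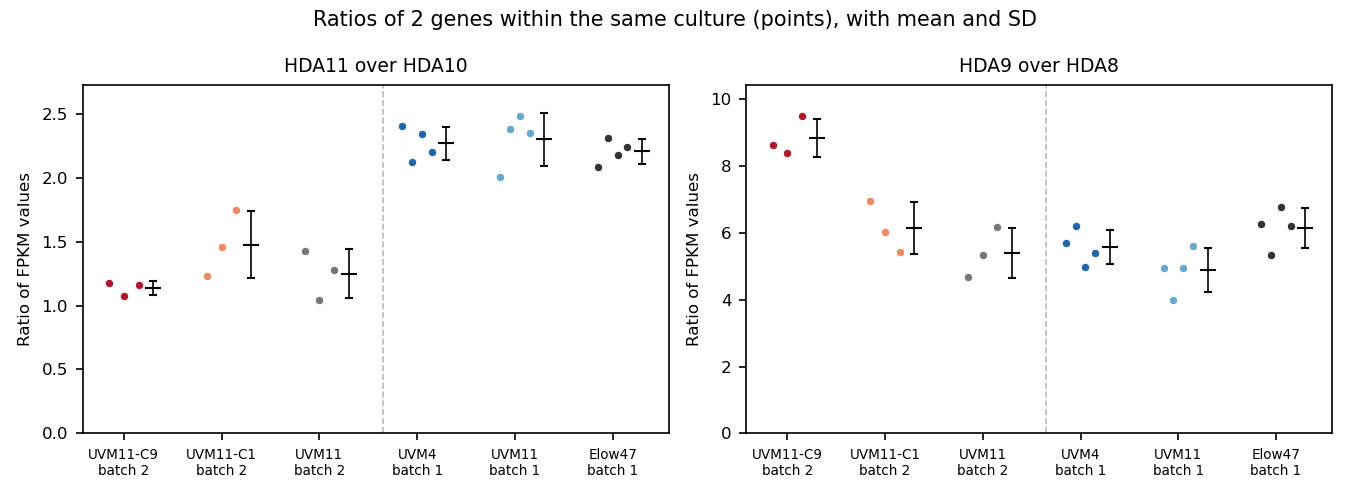
Ratio of the FPKM values of HDA11 over HDA10 (left) and of HDA9 over HDA8 (right) in each culture (points), with the group mean and SD. HDA11 over HDA10 lies from 1.04 to 1.75 in batch 2 and from 2.01 to 2.48 in batch 1, and HDA9 over HDA8 is highest in UVM11-C9, at 8.39 to 9.49.

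The levels of the 4 genes did not move as a unit over the 21 cultures. With the mean of each batch removed, Pearson's r on the log2 scale was 0.47 between HDA8 and HDA11, 0.38 between HDA10 and HDA11 and 0.02 between HDA8 and HDA10. It was -0.14 between HDA9 and HDA10, -0.29 between HDA9 and HDA8 and -0.40 between HDA9 and HDA11. HDA9 and HDA12 had 0.80, and HDA11 and HDA12 had -0.67. With the mean of each strain and batch removed, which leaves only the spread between replicate cultures, the values were mostly nearer 0. They were then 0.09 for HDA8 and HDA11, 0.01 for HDA10 and HDA11, -0.04 for HDA9 and HDA10, 0.08 for HDA9 and HDA8, and 0.18 for HDA9 and HDA11. HDA9 and HDA12 had 0.43 and HDA11 and HDA12 had -0.25. HDA8 and HDA10 moved away from 0 and had -0.59. These are descriptions over cultures that share strains and batches.

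Patterns were also compared among 13508 genes with a mean above 1 FPKM, by r with the mean of each batch removed. The pattern most like HDA9 was that of Cre12.g510750 (0.90), followed by Cre17.g725301 (0.90) and Cre09.g403182 (0.88). Those most like HDA11 were Cre10.g425400 (0.90), Cre16.g678750 (0.89) and Cre07.g313400 (0.88). For HDA8 they were Cre16.g658075 (0.87), Cre12.g545750 (0.85) and Cre13.g584901 (0.84). For HDA10 the highest values were lower, with Cre07.g357300 (0.75), Cre17.g697550 (0.74) and Cre02.g090550 (0.72). These values still hold the differences between strains. With the mean of each strain and batch removed, r for the 12 genes was lower, from 0.52 (Cre12.g545750) to 0.76 (Cre12.g510750). None of these 12 genes lies on chromosome 11.

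Among the other 13 histone deacetylase genes, none was called in the 3 comparisons of batch 1. In UVM11-C1 against UVM11 only SRTA itself was called, by 0.87. In UVM11-C9 against UVM11, 5 were higher and 1 lower, and the smallest adjusted p-values were those of HDA7 (0.44; limma, 4.40e-07) and HDA2 (0.45; 8.72e-06). In UVM11-C9 against UVM11-C1, 5 were higher and 3 lower, led by HDA7 (0.52; limma, 6.57e-08) and HDA12 (0.46; 2.03e-05). Between the batches of UVM11, 1 was higher and 4 lower, led by HDA3 (-0.82; limma, 3.63e-07) and HDA12 (-0.54; 9.33e-07). Relative to UVM11, 46.2% of the 13 were called for UVM11-C9, beside 47.5% of all genes, and 7.69% for UVM11-C1, beside 18.4%. The share was 61.5% in UVM11-C9 relative to UVM11-C1, beside 48.2%, and 38.5% between the batches, beside 56.0%.

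HDA12 shared its direction with HDA9 in the comparisons where both were called. It averaged 7.66 ± 0.409 FPKM in UVM11-C9, 5.53 ± 0.149 FPKM in UVM11-C1, against 5.98 ± 0.152 FPKM in UVM11 of batch 2 (SD, n = 3 each). In UVM11-C9 against UVM11 it rose by 0.35 (limma, adjusted p = 0.000367). HDA8, on the same chromosome, fell in that comparison.

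The genes next to the 4 deacetylase genes were read as their genomic surroundings. Of the 40 genes within 5 places, 31 passed the filter. Of these, 3 were called in UVM11 and 3 in UVM4, each set against Elow47, and 6 in UVM4 set against UVM11. In batch 2, 9 were called for UVM11-C1 and 16 for UVM11-C9, each relative to UVM11, and 22 for UVM11-C9 relative to UVM11-C1. Between the batches of UVM11 19 were called. These are 9.68%, 9.68% and 19.4% of the tested neighbours in batch 1, beside 7.86%, 8.39% and 9.55% of all genes, and 29.0%, 51.6% and 71.0% in batch 2, beside 18.4%, 47.5% and 48.2%. Between the batches they are 61.3%, beside 56.0%. No test of neighbours against other genes was made. In UVM11-C9 against UVM11-C1, 13 rose and 9 fell, so that neighbours did not share a direction. Around HDA8, which fell there, 5 of 9 tested neighbours rose and 2 fell. Around HDA11, which also fell, 4 of 8 rose and 1 fell.

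The neighbour of HDA10 with the smallest adjusted p-value was Cre11.g467783, 2 places before it. This gene had 1.61 ± 0.271 FPKM in UVM11-C9, 6.67 ± 0.391 FPKM in UVM11-C1, against 4.32 ± 0.345 FPKM in UVM11 of batch 2 (SD, n = 3 each). In UVM11-C9 it fell by 1.99 on the log2 scale against UVM11-C1 (limma, adjusted p = 2.04e-10), while HDA10 was not called. In batch 1 it averaged 3.51 FPKM in UVM11 and 2.02 FPKM in Elow47, a rise of 0.76 (adjusted p = 4.08e-05). The other mutant, UVM4, averaged 1.87 FPKM and differed from Elow47 by -0.12 (limma, adjusted p = 0.576).

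The neighbour of HDA11 with the smallest adjusted p-value was Cre11.g474650, 5 places after it. The files list it at 0 in each of the 3 UVM11-C9 and the 3 UVM11-C1 cultures, against 1.28, 1.00 and 1.57 FPKM in the batch 2 cultures of UVM11. In batch 1 it had 1.70, 2.27, 1.54 and 1.71 FPKM in UVM4 and 0.735, 0.681, 1.06 and 1.14 FPKM in UVM11, against a listing at 0 in all 4 cultures of Elow47. It was thus above 0 in every srta mutant culture and at 0 in every culture with a wild-type SRTA allele. Its fold changes and p-values are not given, since against a listing of 0 they depend on the pseudocount. How many other genes show this pattern was not counted here. The study reports a small set of genes, generally at low levels, raised in both mutants and lowered in both complemented strains. HDA11 had no such pattern. Its differences were 0.20 in UVM11 and -0.0043 in UVM4, and 0.25 in UVM11-C1 and -0.19 in UVM11-C9.

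**Figure D5:**
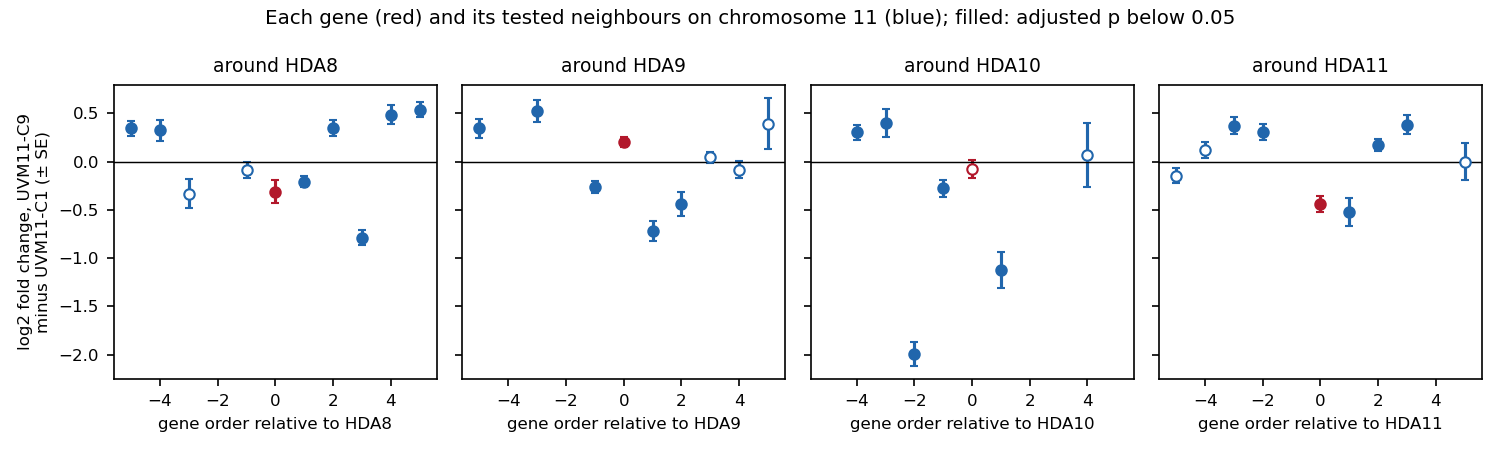
Log2 fold change (± SE) of UVM11-C9 against UVM11-C1 for each of the 4 genes (red) and the tested genes up to 5 places on either side (blue), by gene order on chromosome 11, with filled points for an adjusted p-value below 0.05. Neighbours lie on both sides of 0, and the lowest point, at -1.99, is Cre11.g467783 near HDA10.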

How the data were processed

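The authors aligned the reads with STAR (version 2.4.0j) to version 5 of the genome and computed FPKM for 17741 gene models of version 5.5 with Cuffdiff (version 2.2.1), and these FPKM values were deposited for 21 cultures. The labels name a total RNA kit and the methods a poly(A) kit, and the strand setting of the quantification is not given in the sources used here. The authors' counts were not used here.

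Values were taken as log2(FPKM + 0.1). Genes with a mean above 0.1 FPKM were tested with limma (version 3.58.1, R version 4.3.3) in 1 model of 6 groups with a variance trend and 15 residual degrees of freedom, and 2316 genes were not tested. The 7 comparisons were 3 within each batch and UVM11 between batches. All tests were two-sided. Single genes also had an exact permutation test of their log2 values. Cultures were grouped by label. Between UVM11-C1 and UVM11, column names are told apart by upper or lower case alone, and the UVM11-C1 columns were assigned to their strain alone and are called a, b and c, for the numbers 1, 2 and 3 in their names. Positions come from the RefSeq table of the same assembly, in which 17738 loci matched the gene models measured. Low values gave whole fragments within 0.1 of a step in 97.5% of cases. The step was taken from each gene's own lowest values, scaled by depths estimated from the same low values. This share is therefore no independent check of the relative depths.

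The genes named were HDA8 to HDA11, HDA12, SRTA, up to 2 genes of smallest adjusted p-value per list and comparison, and the 3 most alike genes. The members and lists were chosen with earlier results of these data known. Lists of acetyltransferase and histone genes were not analysed here. The alternatives were pseudocounts of 1 and 0.01, a filter at 1 FPKM or none, quantile normalization, median centring, separate fits for each pair of groups, a block for the replicate number, and omission of single libraries.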

Additional observations from a re-analysis of the deposited data

Results flagged for a closer look

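The effects of UVM11-C9 and UVM11-C1, each against the same UVM11 cultures, differed in 3 of the 4 genes by the direct test of the difference (limma, Benjamini-Hochberg adjusted over 15425 genes). The difference was -0.31 on the log2 scale for HDA8 (adjusted p = 0.0370), 0.20 for HDA9 (adjusted p = 0.00391) and -0.44 for HDA11 (adjusted p = 0.000150). The call of HDA8 was lost in 7 of 14 alternatives, while HDA9 and HDA11 kept theirs in all 14. In this comparison 48.2% of all genes were called. No culture stood apart in the 3 groups of 4 cultures of batch 1, examined for each of the 4 genes. The groups of 3 in batch 2 were not examined in this way.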

How the results depend on the processing

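Of 420 recomputed values of the 4 genes, 378 kept their direction and side of the threshold, 21 lost a call, 10 gained one and 11 changed sign, all of these last in genes that were not called. In UVM11 against Elow47 the number of called genes was 1, and 0 in a fit of only these groups, 0 with the replicate block, 2 in batch 1 alone without the block (an alternative chosen after seeing the data), and 0 to 1 on leaving out a replicate. In UVM4 against UVM11 it was 0, and 1 in a fit of only these groups, with quantile normalization, with the replicate block and in batch 1 alone without the block, the called gene being HDA11 (adjusted p = 0.00913, 0.0421, 0.0458 and 0.0180, in that order). In UVM11-C1 against UVM11 it was 1, and 0 in a fit of only these groups and 0 to 1 on leaving out a replicate. In UVM11-C9 against UVM11 it was 2, and 1 to 3 on leaving out a replicate. The share of the 4 genes was 23.2% of 17 genes and 25.4% of the 14 RPD3/HDA1-type genes, since fewer genes enter the sum.

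The sign changed for HDA9 in UVM4 against UVM11 with median centring (0.0054), and on leaving out a replicate its difference lay between -0.035 and 0.0187. On leaving out a replicate the differences of HDA10 lay between -0.0515 and 0.0741 in UVM11-C1 against UVM11 and between -0.0827 and 0.0026 in UVM4 against Elow47, and that of HDA11 between -0.0288 and 0.0305 in UVM4 against Elow47. The causes were not tested. Over all genes, the count called in UVM11-C1 against UVM11 was 2844 with all 6 groups in the model and 864 in a fit of only these groups, that in UVM4 against UVM11 1473 and 2589, and that in UVM4 against Elow47 1294 and 828 without replicate 4 of UVM4.

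In batch 1 same-numbered cultures did not deviate together (r from -0.22 to 0.26 in 12 pairs, 2 of them above 0.1, and the best match had the same number in 6 of 24 cases). In UVM11-C9 and UVM11-C1, by the numbers in the column names, r was 0.11, 0.07 and 0.19 in the 3 pairs, and 5 of 6 cultures correlated best with their own number, a hint from the data and not from the design. Since not every pair was above 0.1, the cultures were taken to share only a number. With the replicate block HDA8 in UVM11 against Elow47 had an adjusted p-value of 0.0639. With it, 2 genes were called in UVM11-C9 against UVM11-C1, HDA9 (0.0349) and HDA11 (0.00715), while HDA8 had 0.103. No paired analysis was possible for the comparisons with UVM11 of batch 2 because its numbers 5 to 7 occur in no other group. With 3 or 4 cultures per group and no read numbers, precision rests on the spread between cultures alone.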
